A study of Homo sapiens with 6 samples.

Results

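Some genes of the lysosome rose and others fell when HepG2 cells were given ellagic acid (EA) at 50 µM for 24 h. All tested genes split in a like way, with 40.5% called higher and 40.5% lower. EA is a polyphenol of berries and nuts. HepG2 is an established hepatocellular carcinoma line with hepatocyte features. The 40 genes described here encode soluble lysosomal hydrolases, their activators and carriers, and proteins of the lysosomal membrane. They were taken by symbol from a table of 52408 genes, and each symbol matched 1 row. RNA was sequenced from 3 EA libraries and, as the control, 3 libraries of cells given an equal volume of the solvent DMSO for the same time. All libraries come from the 1 line, and the labels do not say that the replicates were separate cultures, so p-values measure the spread between these libraries, which may be technical. The EA libraries held 15738089 to 19202292 reads in genes and the DMSO libraries 22987425 to 25973621. On the second principal component of log2 CPM, with 2.49% of the variance, EA replicate 3 lay at -33.78 and EA replicates 1 and 2 at 18.54 and 14.19, and values that turn on it are given with and without it. Bulk RNA does not tell less RNA per cell from fewer cells of a type.

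Lysosomes are acidic organelles in which many hydrolases break down proteins, glycans, glycosaminoglycans and lipids that arrive by endocytosis and autophagy. Most of these enzymes reach the lysosome by a mannose 6-phosphate tag that receptors in the Golgi recognise, and a proton pump, the V-ATPase, keeps the lumen acidic. Loss of a single hydrolase usually causes a lysosomal storage disease, and many of the genes are under the control of the MiT/TFE transcription factors TFEB, TFE3 and MITF, which bind a palindromic E-box. Hepatocytes are rich in lysosomes, through which they turn over plasma proteins and lipoproteins.

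Of the 40 genes, 38 had enough reads to be tested, and 13 of them were higher and 20 lower with EA, while 5 were not called. A call means a Benjamini-Hochberg adjusted p under 0.05, over 15648 genes, in the quasi-likelihood test of edgeR. The higher genes made up 34.2% of the tested lysosomal genes, against 40.5% among all tested genes. The lower ones made up 52.6%, also against 40.5%. Without EA replicate 3, 13 of the 38 were higher and 24 lower, beside 6794 higher and 6819 lower of 16444 tested genes. Since 81.0% of all tested genes were called, a call by itself sets none of these genes apart. The median log2 fold change over the 38 was -0.38, against 0.00 over all tested genes, with the quartiles at -0.84 and 0.59 against -0.86 and 0.92. Among genes with a mean of at least 10 CPM (the share of a library's reads in a gene, scaled to a common library size with TMM factors), 32 lysosomal genes had a median of -0.38 and 9272 genes one of -0.10. Of these 32 genes 56.25% were lower and 34.4% higher, against 46.4% lower and 39.8% higher of the 9272. Every role held members that rose and members that fell. The iduronate sulfatase IDS, the cysteine protease CTSB and the sphingomyelinase SMPD1 lay at the upper end of the order, and the cysteine proteases CTSH and CTSC and the thioesterase PPT1 at the lower end.

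**Figure D1:**
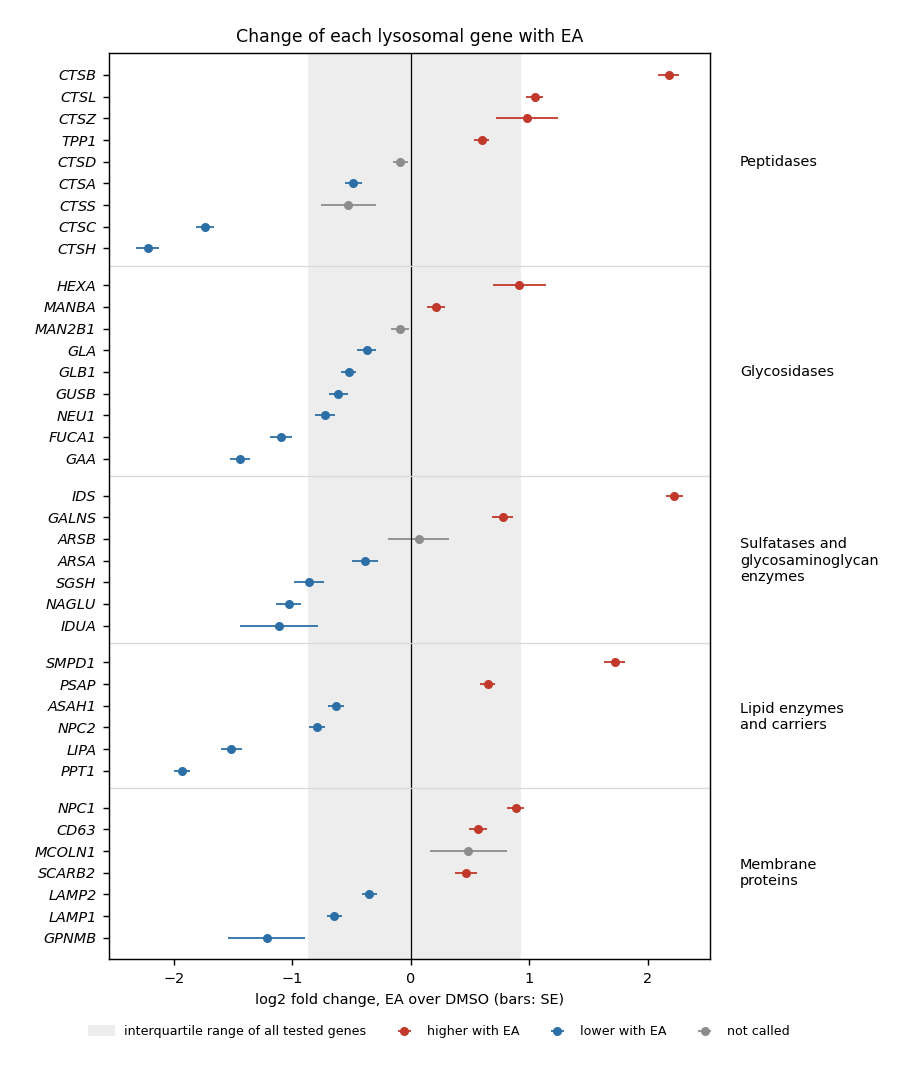
Log2 fold change of EA over DMSO for the 38 tested lysosomal genes, grouped by role, with bars for the SE and grey shading for the interquartile range of all tested genes. Red points passed the test upward (13 genes), blue points downward (20) and grey points did not pass (5); log2 fold changes run from -2.22 for CTSH to 2.23 for IDS.

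Short stretches of promoter are shown because TCACGTG, the core of the E-box that MiT/TFE factors bind, occurs in the promoters of lysosomal genes that went in opposite directions. The sequences are from RefSeq on GRCh38.p14 and run 5′ to 3′ on the strand of the gene, in lower case with each match to TCACGTG or its reverse complement CACGTGA in capitals. A full palindrome TCACGTGA is an overlapping pair of both and is counted as 1 box.
LAMP1 (chr13:113297034-113297229, plus strand): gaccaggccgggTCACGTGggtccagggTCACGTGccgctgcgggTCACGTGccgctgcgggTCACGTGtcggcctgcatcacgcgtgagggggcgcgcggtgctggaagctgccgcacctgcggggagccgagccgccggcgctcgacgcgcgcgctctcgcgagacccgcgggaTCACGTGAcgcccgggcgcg
GAA (chr17:80101492-80101568, plus strand): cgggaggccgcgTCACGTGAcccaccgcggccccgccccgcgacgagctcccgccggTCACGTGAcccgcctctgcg
CTSA (chr20:45891280-45891328, plus strand): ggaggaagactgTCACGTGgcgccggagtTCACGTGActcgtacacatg
GALNS (chr16:88856962-88857134, minus strand): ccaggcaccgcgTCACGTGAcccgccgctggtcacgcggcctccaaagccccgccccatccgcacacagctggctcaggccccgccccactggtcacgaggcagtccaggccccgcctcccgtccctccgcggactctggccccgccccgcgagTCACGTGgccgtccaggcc
MCOLN1 (chr19:7522570-7522623, plus strand): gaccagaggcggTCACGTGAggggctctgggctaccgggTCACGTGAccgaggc
LAMP1, GAA and CTSA were lower with EA, GALNS was higher, and MCOLN1 was not called. LAMP1 had 6 such boxes within the 300 bases searched, 250 before and 50 after the start of the gene, of which 5 lie in the stretch shown, and GAA, CTSA, GALNS and MCOLN1 had 2 each. Of the 29 lysosomal genes with an entry in the RefSeq table, 9 (31%) held at least 1 box on either strand, the other 4 being NEU1, CTSD, ARSB and CTSF. Among all 35116 promoters of this length 3.71% did. The full palindrome TCACGTGA was found in 5 of the 29 (17.2%), which are the genes printed above, and in 0.98% of all promoters. A box was present in 1 of 9 genes that were higher with EA, in 4 of 15 that were lower, in 3 of 4 that were tested and not called, and in the 1 that was not tested. A match is a stretch of letters and says nothing of binding in these cells. LAMP2, CTSB, CTSO, CTSS, HEXA, MANBA, ARSA, SGSH, NAGLU, PSAP and ASAH1 had no entry.

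The lysosomal peptidases had the widest range of log2 fold changes of any role, from -2.22 to 2.17. Of 9 tested, 4 were higher (44.4%), 3 were lower (33.3%) and 2 were not called. Among all tested genes 40.5% were higher and 40.5% lower. CTSB (ENSG00000164733), cathepsin B, a cysteine protease with endopeptidase and dipeptidyl carboxypeptidase activity, was read at 3688, 4092 and 4694 CPM in the EA libraries, against 929, 930 and 903 CPM in the DMSO libraries. The lowest EA library thus lay far above the highest DMSO library. Its mean level was 4158 ± 506 CPM with EA and 921 ± 15.1 CPM with DMSO (SD, n = 3 each), a 4.52-fold difference (log2 fold change 2.17, SE 0.09, adjusted p = 4.04e-12 in edgeR's test). CTSL, cathepsin L, another endopeptidase of the same family, averaged 177 ± 13.2 CPM with EA and 86.0 ± 2.49 CPM with DMSO, 2.06-fold higher. The tripeptidyl peptidase TPP1, whose loss causes a neuronal ceroid lipofuscinosis, averaged 246 ± 5.96 CPM with EA and 162 ± 4.08 CPM with DMSO. CTSZ, a carboxypeptidase, was higher too but rests on few reads, with 1.76 ± 0.223 CPM in EA and 0.887 ± 0.144 CPM in DMSO libraries.

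CTSH, CTSC and CTSA were lower. CTSH (ENSG00000103811), cathepsin H, mainly an aminopeptidase, was read at 34.7, 38.2 and 28.4 CPM with EA, against 162, 162 and 148 CPM with DMSO. All EA values lay below all DMSO values, and the level was 4.66-fold lower (log2 fold change -2.22, SE 0.10, adjusted p = 3.72e-11 in edgeR's test). CTSC (ENSG00000109861), the dipeptidyl peptidase that activates serine proteases of immune cells, stood at 39.6, 45.8 and 46.5 CPM with EA and at 152, 143 and 146 CPM with DMSO, 3.34-fold lower (log2 fold change -1.74, SE 0.08, adjusted p = 1.01e-11 in edgeR's test). The groups did not overlap here either. CTSD, cathepsin D, the main aspartic protease of the lysosome, was not called, at 240 ± 10.9 CPM with EA and 255 ± 13.4 CPM with DMSO, and its EA range of 231 to 252 CPM overlapped its DMSO range of 241 to 267 CPM. It was called lower without EA replicate 3 (log2 fold change -0.15, adjusted p = 0.0165 in edgeR's test). With no filter on low counts it was called lower as well (-0.22, adjusted p = 0.0093 in edgeR's test). In GENCODE 29, 52.7% of the CTSD exon bases lie in other annotated genes too. If the counting used these genes and ignored strand, reads there could not be assigned. AC068580.4, on the same strand, covers 42% of the CTSD exon bases, and no strand setting would part those reads. AC068580.3, on the other strand, covers 16%. The strand setting and the annotation release of the counting are unknown. TPP1 shares 14.4% of its exon bases with other genes and CTSA 28.5%. CTSS, cathepsin S, stood at 1.29 ± 0.162 CPM with EA and 1.85 ± 0.181 CPM with DMSO and was not called although the groups did not overlap (log2 fold change -0.53, adjusted p = 0.0505 in edgeR's test). CTSS was called lower without EA replicate 3 (-0.58, adjusted p = 0.0480 in edgeR's test), without DMSO replicate 3 (-0.64, adjusted p = 0.0439), with no filter on low counts (adjusted p = 0.0354), and after GC content and length were corrected for, without and with a replicate block (adjusted p = 0.0196 and 0.0382). CTSF had 0 reads in every library, which allows up to 0.156 to 0.191 CPM in an EA library and 0.116 to 0.131 CPM in a DMSO library (3 reads), and CTSO had at most 3 reads in an EA library and 6 in a DMSO library. Neither was tested. Whether the few reads of CTSF, CTSO, HEXA and MCOLN1 come from low expression or from the counting or annotation cannot be told from the deposited counts.

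Of 9 tested glycosidases, 6 were lower (66.7%), 2 were higher (22.2%) and 1 was not called, against 40.5% lower and 40.5% higher among all tested genes. Their summed level was 506 ± 17.9 CPM with EA and 760 ± 24.5 CPM with DMSO. GAA (ENSG00000171298), the acid alpha-glucosidase that digests glycogen in lysosomes and is missing in Pompe disease, was read at 39.8, 41.0 and 47.0 CPM with EA, against 116, 125 and 106 CPM with DMSO. The EA libraries all lay below the DMSO libraries, and the gene was 2.71-fold lower (log2 fold change -1.44, SE 0.08, adjusted p = 3.36e-10 in edgeR's test). The alpha-fucosidase FUCA1, which removes fucose from glycoproteins, averaged 18.0 ± 2.04 CPM with EA and 38.3 ± 1.32 CPM with DMSO. NEU1, the sialidase, GLB1, the beta-galactosidase, and CTSA, the carboxypeptidase that protects both in a complex, were all lower, with log2 fold changes of -0.72 (SE 0.08), -0.52 (SE 0.06) and -0.48 (SE 0.07). GLB1 shares 10.0% of its exon bases with other genes, MANBA 11.3% and MAN2B1 21.2%. The beta-glucuronidase GUSB, often used as a reference gene, was lower by a log2 fold change of -0.61 (SE 0.08), and the alpha-galactosidase GLA, missing in Fabry disease, by one of -0.37 (SE 0.08).

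HEXA (ENSG00000213614), the alpha subunit of beta-hexosaminidase, whose loss causes Tay-Sachs disease, was read at 5.60, 5.40 and 3.12 CPM with EA, against 2.18, 2.39 and 2.87 CPM with DMSO. The groups did not overlap, but EA replicate 3 lay close to the DMSO libraries (log2 fold change 0.92, SE 0.22, adjusted p = 0.00164 in edgeR's test). These levels rest on 59 to 102 reads in an EA library and 55 to 73 in a DMSO library, and 16.3% of the exon bases are shared with other genes. The 2 enzymes that remove mannose differed little between the groups. The beta-mannosidase MANBA stood at 72.6 ± 5.62 CPM with EA and 62.6 ± 2.63 CPM with DMSO and was called higher (log2 fold change 0.21, SE 0.08, adjusted p = 0.0176 in edgeR's test). That call ended when any single library other than EA replicate 3 was left out (adjusted p 0.0503 to 0.111). It also ended with no filter on low counts (log2 fold change 0.08, adjusted p = 0.433 in edgeR's test). With correction for GC content and length the log2 fold change was -0.14 and not called. The alpha-mannosidase MAN2B1 was not called, at 58.4 ± 4.32 CPM with EA and 62.1 ± 2.62 CPM with DMSO. It was called lower without EA replicate 3 (log2 fold change -0.17, adjusted p = 0.0161 in edgeR's test). With no filter on low counts it was called lower too (-0.22, adjusted p = 0.0227 in edgeR's test).

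Enzymes that take apart glycosaminoglycans, the sulfated sugar chains of proteoglycans, did not move together although several act on the same chains. Of 7 tested sulfatases and glycosaminoglycan enzymes, 2 were higher (28.6%), 4 were lower (57.1%) and 1 was not called. Among all tested genes 40.5% were higher and 40.5% lower. IDS (ENSG00000010404), the iduronate sulfatase that takes the first sulfate off heparan and dermatan sulfate and is missing in Hunter syndrome, was read at 212, 206 and 220 CPM with EA, against 47.8, 43.9 and 44.6 CPM with DMSO. No EA library came near the DMSO range, and the level was 4.68-fold higher (log2 fold change 2.23, SE 0.07, adjusted p = 2.35e-13 in edgeR's test). IDUA (ENSG00000127415), the iduronidase that takes the next step on the same chains, was scarce, at 0.560, 0.424 and 0.687 CPM with EA and 1.56, 1.04 and 1.02 CPM with DMSO. The groups did not overlap and it was called lower (log2 fold change -1.11, SE 0.33, adjusted p = 0.00574 in edgeR's test), on 8 to 13 reads in an EA library and 24 to 40 in a DMSO library. IDUA shares 13.3% of its exon bases with SLC26A1, IDS shares 17.4% with AC244197.3 and a further gene, and NAGLU shares 12.6% with another gene.

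The heparan sulfate enzymes NAGLU and SGSH, each missing in a form of Sanfilippo syndrome, fell with log2 fold changes of -1.03 (SE 0.10) and -0.86 (SE 0.13). GALNS, the galactosamine sulfatase that acts on keratan and chondroitin sulfate, rose to 42.3 ± 3.11 CPM with EA, against 24.7 ± 1.79 CPM with DMSO. ARSA, which desulfates the glycolipid sulfatide, was called lower, with a log2 fold change of -0.38 (SE 0.11). With GC content and length correction and a replicate block it was not called (-0.26, adjusted p = 0.0609 in edgeR's test). ARSB, the sulfatase of dermatan and chondroitin sulfate, was decided by 1 library. It was read at 155, 158 and 280 CPM in EA replicates 1, 2 and 3, against 191, 185 and 191 CPM with DMSO. EA replicates 1 and 2 lay below every DMSO library and EA replicate 3 above every one. It was not called over all libraries (log2 fold change 0.07, SE 0.26, adjusted p = 0.829 in edgeR's test) and was called lower without EA replicate 3 (log2 fold change -0.30, adjusted p = 1.52e-06 in edgeR's test).

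Among 6 lipid enzymes and carriers, 2 rose (33.3%) and 4 fell (66.7%), against 40.5% higher and 40.5% lower among all tested genes. SMPD1 (ENSG00000166311), the acid sphingomyelinase, which cuts sphingomyelin to ceramide and is missing in Niemann-Pick disease types A and B, was read at 41.1, 40.7 and 37.7 CPM with EA, against 12.4, 11.5 and 12.3 CPM with DMSO. The groups were far apart, at a 3.29-fold difference (log2 fold change 1.72, SE 0.09, adjusted p = 6.68e-11 in edgeR's test). PSAP, the precursor of the saposins that present sphingolipids to their hydrolases, rose to 1272 ± 50.6 CPM with EA, against 812 ± 20.6 CPM with DMSO. By contrast ASAH1, the acid ceramidase that acts on the product of SMPD1, averaged 77.5 ± 4.02 CPM with EA and 120 ± 4.88 CPM with DMSO, a log2 fold change of -0.63 (SE 0.07).

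PPT1 (ENSG00000131238), the thioesterase that removes palmitate from proteins and is missing in infantile neuronal ceroid lipofuscinosis, was read at 55.6, 54.9 and 59.2 CPM with EA, against 222, 206 and 221 CPM with DMSO. Each EA library was far below each DMSO library, and the gene was 3.82-fold lower (log2 fold change -1.93, SE 0.07, adjusted p = 9.51e-13 in edgeR's test). In GENCODE 29, 23.4% of its exon bases are shared with CAP1. LIPA (ENSG00000107798), the acid lipase that frees cholesterol and fatty acids from lipoprotein esters, was read at 35.0, 35.4 and 43.4 CPM with EA, against 113, 103 and 110 CPM with DMSO. It was 2.86-fold lower with no overlap (log2 fold change -1.51, SE 0.09, adjusted p = 2.55e-10 in edgeR's test). NPC2, the soluble carrier that takes up the freed cholesterol, averaged 60.8 ± 2.46 CPM with EA and 105 ± 3.49 CPM with DMSO, a log2 fold change of -0.79 (SE 0.07).

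Membrane proteins split evenly, with 3 of 7 higher, 3 lower (42.9% each way) and 1 not called. That is near the 40.5% each way among all tested genes. NPC1 (ENSG00000141458), the membrane protein to which NPC2 hands cholesterol for export, was read at 462, 456 and 391 CPM with EA, against 239, 229 and 241 CPM with DMSO. It rose where LIPA and NPC2 fell, by 1.85-fold and with no overlap between the groups (log2 fold change 0.88, SE 0.07, adjusted p = 1.93e-08 in edgeR's test). The tetraspanin CD63, found on late endosomes and exosomes, averaged 314 ± 34.2 CPM with EA and 212 ± 4.96 CPM with DMSO. SCARB2, the receptor that brings glucocerebrosidase to the lysosome, averaged 187 ± 28.1 CPM with EA and 135 ± 7.63 CPM with DMSO.

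LAMP1 and LAMP2, the most abundant glycoproteins of the lysosomal membrane, both fell with EA. LAMP1 averaged 177 ± 7.78 CPM with EA and 276 ± 5.61 CPM with DMSO, and LAMP2 218 ± 6.03 CPM with EA and 278 ± 9.88 CPM with DMSO, with log2 fold changes of -0.65 (SE 0.06) and -0.35 (SE 0.06). GPNMB (ENSG00000136235), a glycoprotein of lysosomes and melanosomes that is known to respond to lysosomal stress, was scarce, at 0.373, 0.477 and 0.423 CPM with EA and 1.09, 1.00 and 0.904 CPM with DMSO. It was called lower on 6 to 9 reads in an EA library and 23 to 28 in a DMSO library (log2 fold change -1.22, SE 0.32, adjusted p = 0.00283 in edgeR's test). MCOLN1, the calcium channel TRPML1, was scarce too, with 14 to 17 reads in an EA library and 12 to 18 in a DMSO library, and was not called (log2 fold change 0.49, SE 0.32).

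**Figure D2:**
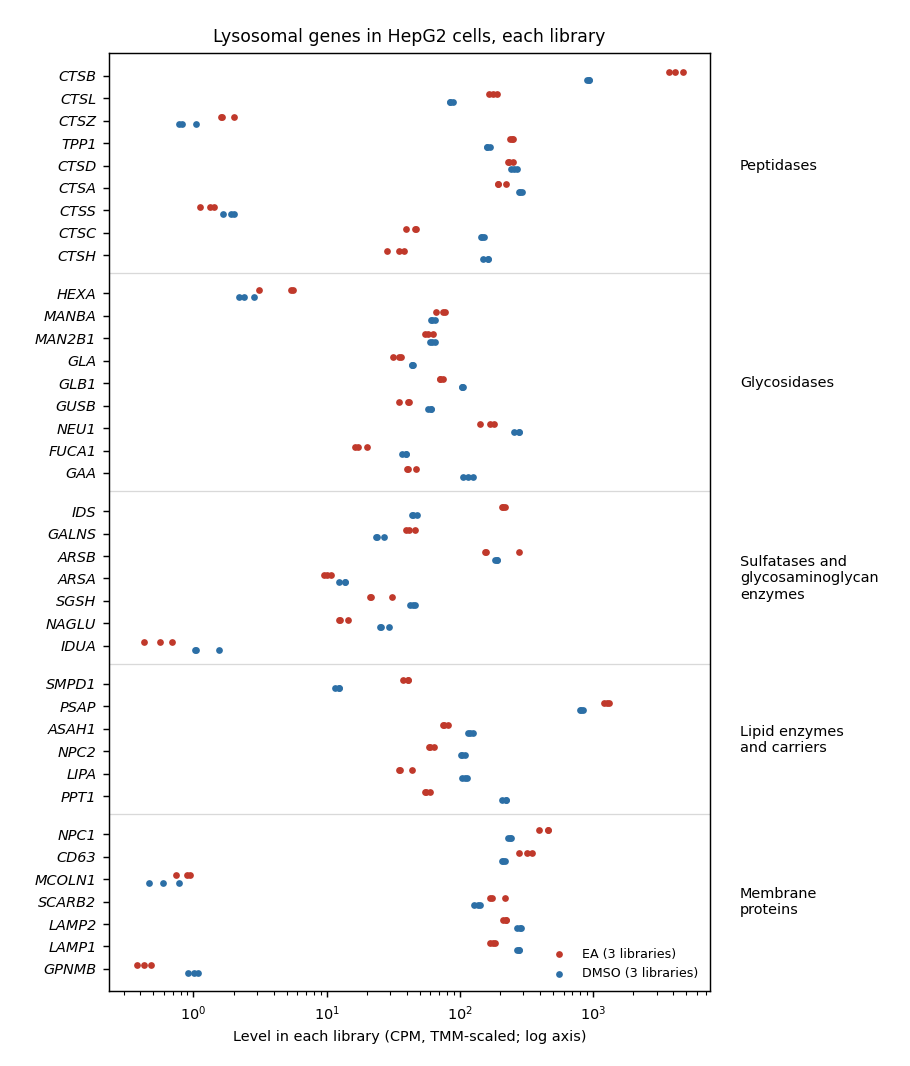
Level of each tested lysosomal gene in each library, in CPM with TMM-scaled library sizes on a log axis, with the EA libraries in red above the DMSO libraries in blue and genes grouped by role. CTSB stands at 3688 to 4694 CPM with EA and 903 to 930 CPM with DMSO, while ARSB shows 1 EA library at 280 CPM apart from the others at 155 and 158.

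All EA values lay below all DMSO values in 21 of the 38 tested lysosomal genes, as they did in 41.5% of all tested genes, and above them in 13, as in 41.4% of all tested genes. The groups overlapped in CTSD, MAN2B1, ARSB and MCOLN1, while in 82.9% of all tested genes they did not overlap.

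Levels per kb of the longest annotated transcript allow the genes to be ranked against each other. With EA, CTSB was highest at 1073 ± 131 CPM per kb, followed by PSAP at 443 ± 17.6, CD63 at 254 ± 27.8 and CTSD at 113 ± 5.14 CPM per kb. With DMSO, PSAP led at 283 ± 7.19, followed by CTSB at 238 ± 3.90, CD63 at 172 ± 4.02 and CTSD at 120 ± 6.32 CPM per kb. These 4 genes held the first 4 places in both groups, and PSAP and CTSB traded the first place. IDS moved to place 15 with EA, against place 30 with DMSO, and SMPD1 to place 18, against 31. CTSH moved to place 20 with EA, against place 7, and PPT1 to place 22, against 10. Below place 32 with EA, and again with DMSO, lay CTSZ, IDUA, CTSS, HEXA, GPNMB, MCOLN1, CTSO and CTSF.

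Summed over the 40 genes, the level was 8362, 8878 and 9726 CPM in the EA libraries, against 5716, 5638 and 5544 CPM in the DMSO libraries. The sum was 1.60 times as high with EA, with no overlap (exact two-sided permutation test, p = 0.1, the smallest that 3 against 3 can give). CTSB held 46.2% ± 2.08 of the sum with EA and 16.3% ± 0.128 with DMSO. Without CTSB, a comparison added after the data were seen, the sums were 4674, 4786 and 5032 CPM with EA and 4787, 4708 and 4641 CPM with DMSO, a ratio of 1.03 with overlapping groups (exact two-sided permutation test, p = 0.5). By role and without CTSB, the summed level was 0.865 times as high with EA for peptidases and 0.666 times for glycosidases, and 1.45, 1.12 and 1.17 times for glycosaminoglycan enzymes, lipid genes and membrane proteins. Each ratio above 1 fell below 1 with a single riser left out. Leaving out a strong riser lowers a ratio by construction, and no faller was left out in turn. In sums added after the data were seen, the ratio was 0.485 for lipid genes without PSAP, at 273 ± 8.92 CPM with EA and 562 ± 21.2 CPM with DMSO, 0.962 for glycosaminoglycan enzymes without IDS, and 0.993 for membrane proteins without NPC1. The groups did not overlap in the sum without PSAP. The sum without IDS was 241, 241 and 382 CPM with EA, against 300, 302 and 296 CPM with DMSO. That without NPC1 was 852, 880 and 957 CPM with EA, against 911, 892 and 907 CPM with DMSO. In both, EA replicates 1 and 2 lay below every DMSO library and EA replicate 3 above every one. The overlap in these sums thus rests on EA replicate 3. The ratio of the glycosaminoglycan enzymes includes EA replicate 3, at 602 CPM against 453 and 447 CPM in the other two EA libraries.

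**Figure D3:**
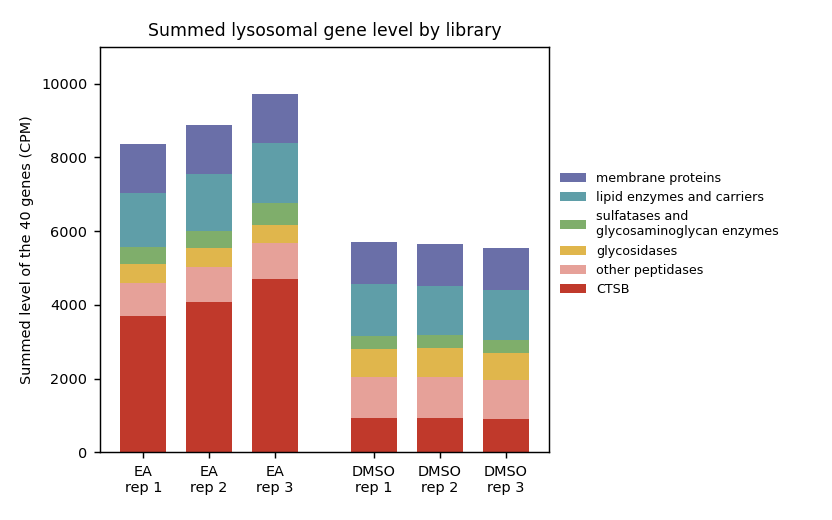
Summed level of the 40 lysosomal genes in each library, in CPM, with EA libraries on the left, DMSO libraries on the right, and stacked bars for CTSB alone and for each role. The EA bars reach 8362 to 9726 CPM and the DMSO bars 5544 to 5716 CPM, and the CTSB segment at the foot takes 46.2% of the bar on average with EA and 16.3% with DMSO.

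Other genes of the pathway were read from lists chosen beside the 40. The counts in these short lists stand beside shares of 40.5% higher and 40.5% lower among all tested genes. The difference of a list from those shares was not tested. Of 22 tested further lysosomal hydrolases and their helpers, 6 were higher, 9 lower and 7 not called (median log2 fold change -0.15). The ribonuclease RNASET2 and LGMN, the protease legumain that processes cathepsins, had log2 fold changes of 1.60 and 0.76. SUMF1, which activates all lysosomal sulfatases by modifying their active site, fell to 6.14 ± 0.448 CPM with EA, against 19.8 ± 1.17 CPM with DMSO. The carboxypeptidase PRCP had a log2 fold change of -0.86.

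Of 17 tested V-ATPase subunits, 6 were higher, 4 lower and 7 not called (median 0.15). ATP6V1D, ATP6V1B2 and ATP6V1A of the cytosolic domain rose with log2 fold changes of 1.17, 0.82 and 0.55. ATP6V0E2, a small membrane subunit, fell to 14.2 ± 3.10 CPM with EA, against 98.6 ± 5.52 CPM with DMSO, while ATP6V1G1 and ATP6V1F had log2 fold changes of -0.42 and -0.33. Of 16 genes of mannose 6-phosphate tagging and transport, 4 were higher, 10 lower and 2 not called (median -0.38). The retromer subunits VPS29 and VPS35, which return sorting receptors to the Golgi, and NAGPA, which uncovers the mannose 6-phosphate tag, had log2 fold changes of -1.80, -1.11 and -1.37. The adaptor subunits AP1G1 and AP1M1 and GNPTAB, which starts the tag, rose with log2 fold changes of 0.31, 0.29 and 0.25. With correction for GC content and length, 0 of these 16 genes were higher in edgeR's test, also at an unadjusted p under 0.05, and without a filter on low counts 1 was; with no correction DESeq2 called 5 higher and limma-voom 4.

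Of 20 tested lysosomal transporters and other membrane proteins, 5 were higher, 9 lower and 6 not called (median -0.17). Without EA replicate 3, 15 of 21 were lower, beside 6819 of all 16444 genes tested in that setting. The peptide transporter ABCB9 (log2 fold change 1.43), the cation-transporting ATPase ATP13A2 (0.76) and OSTM1, a partner of the chloride exchanger CLCN7 (0.67), rose. The ion channel TPCN1 (-1.93), the cystine exporter CTNS (-0.86) and LAPTM4B (-0.84) fell. Genes of the MiT/TFE factors and of the Rag pathway, which holds TFEB in the cytosol in fed cells, included 10 of 20 higher, 7 lower and 3 not called (median 0.18). MITF rose to 16.3 ± 2.77 CPM with EA, against 0.525 ± 0.0401 CPM with DMSO (log2 fold change 4.94, SE 0.20), and TFE3 to 137 ± 7.36 CPM, against 62.8 ± 1.54 CPM (log2 fold change 1.13, SE 0.07). TFEB was not called (log2 fold change -0.21, SE 0.12). TSC1 rose (log2 fold change 1.37), whereas TSC2 (-0.75), RRAGA (-1.28) and MLST8 (-1.45) fell. The Rag genes did not move together, as RRAGB (0.32), RRAGC (1.24) and RRAGD (1.51) were called higher.

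Cystatins, inhibitors of cysteine cathepsins, also parted. CST3, cystatin C, the main secreted inhibitor, fell to 105 ± 7.21 CPM with EA, against 280 ± 26.6 CPM with DMSO (log2 fold change -1.42, SE 0.08), and CSTB and CSTA of the cytosol had log2 fold changes of -0.66 and -1.53. CST1 had 1031 reads over the EA libraries and 3 over the DMSO libraries, a ratio of 473 (95% counting interval 161 to 2297), and CST4 86 reads with EA and 2 with DMSO, a ratio of 59.2 (15.9 to 496). In all, 2 of 6 tested cystatins were higher, 3 lower and 1 not called. The CST1 and CST4 genes have near-identical copies, between which reads may be split.

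**Figure D4:**
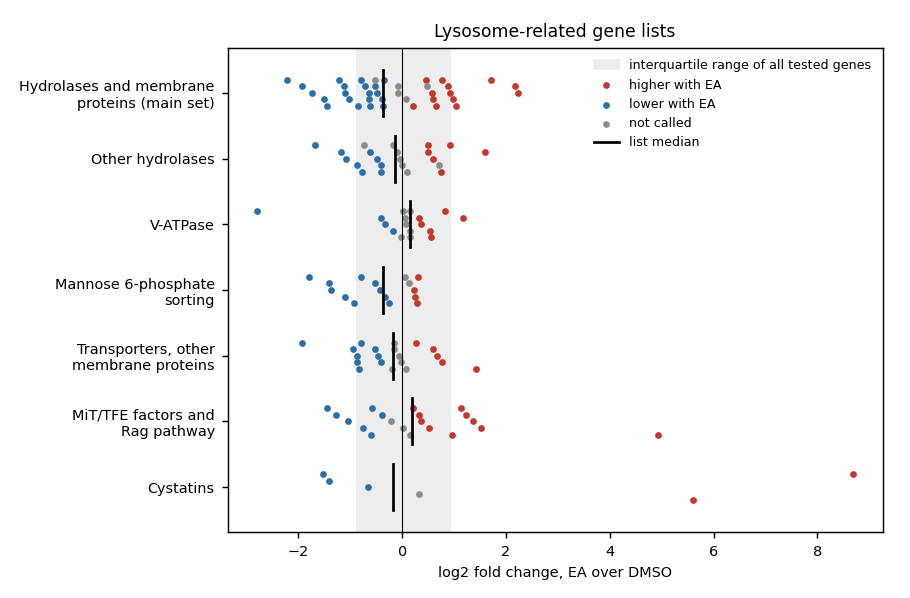
Log2 fold change of EA over DMSO for each tested gene of 7 lysosome-related lists, with a black line at each list's median and grey shading for the interquartile range of all tested genes. Medians run from -0.38 for the 40 hydrolases and membrane proteins and for the sorting genes to 0.18 for the MiT/TFE and Rag list; the points of CST1 and CST4 at the far right are fitted values on 3 and 2 DMSO reads.

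Markers of the hepatocyte state and of other cell types were read as well. All 10 hepatocyte markers, ALB, AFP and APOB among them, were detected in every library and lower with EA, as were 40.5% of all tested genes. Their summed level was 12184 to 12816 CPM in EA libraries and 50288 to 53140 CPM in DMSO libraries. The largest part of the DMSO sum was APOB, which averaged 3080 CPM with EA and 29447 CPM with DMSO. Log2 fold changes of the 10 markers ran from -4.28 to -0.52. Macrophages are rich in lysosomal gene transcripts, and of 10 macrophage markers PTPRC, CD163 and TYROBP had 0 reads in all 6 libraries. The summed macrophage list stood at 296 to 363 CPM with EA and 1780 to 1861 CPM with DMSO, nearly all of it LYZ, which averaged 324 CPM with EA and 1810 CPM with DMSO. Of the 5 tested macrophage markers CSF1R and ITGAM were higher, at 1.85 and 1.75 CPM with EA and 0.109 and 0.0682 CPM with DMSO, and CD14, FCER1G and LYZ were lower. Stellate and fibroblast markers summed to 56.9 to 62.9 CPM with EA and 47.1 to 48.2 CPM with DMSO, with COL1A2 and DCN at 0 reads in all libraries. Of the tested ones ACTA2 was higher, at 53.7 CPM with EA and 30.6 CPM with DMSO, whereas PDGFRB, at 5.41 CPM with EA and 16.2 CPM with DMSO, and COL1A1, at 0.0384 CPM with EA and 0.766 CPM with DMSO, were lower. The 4 endothelial markers found summed to 3.34 to 4.42 CPM with EA and 2.32 to 2.44 CPM with DMSO. Among them VWF was higher, at 3.14 CPM with EA and 1.07 CPM with DMSO, and CDH5 lower, at 0.336 CPM with EA and 1.30 CPM with DMSO. The part of these markers in the changes of the lysosomal genes was not tested.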

How the data were processed

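RNA from 3 EA and 3 DMSO libraries of HepG2 cells was sequenced as paired reads on a HiSeq instrument, per the labels' protocols. The submitters' processing notes name the hg19 build, HTSeq 0.6.1, HISAT, cutadapt 1.9.1 and bcl2fastq 2.17.1.14; annotation release, strand setting and filters were not given in the sources used here. The authors deposited raw read counts per gene, and the 6 columns were matched to samples by name.

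Genes were filtered with filterByExpr, scaled by TMM and tested with edgeR 4.0.16 (R 4.3.3, robust quasi-likelihood F test, Benjamini-Hochberg adjustment over 15648 genes); the test was checked on simulated counts. Levels are CPM on TMM-scaled library sizes, and the SE is the log2 fold change over the square root of F. Floors and intervals of count ratios reflect counting error alone, as reads lacking molecular identifiers may be copies of 1 molecule. Transcript length, GC content and shared exon bases came from GENCODE 29 on GRCh38, whereas the submitters name hg19 for the counts. The only coordinates given are those of the promoter stretches, on GRCh38.p14. Of the 40 genes, 11 share at least 10% of exon bases with another gene. Other lists matched by symbol or older symbol except PECAM1.

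The members and lists were chosen with earlier results of these data known. Per-library values are printed for called members with an absolute log2 fold change of at least 1.5 and for the largest called increase and decrease in each role; in other lists up to 3 called genes per direction with the smallest p are named, and TFEB, TFE3 and MITF; some genes that this rule takes are left out of the text. CTSD, CTSS, MANBA, MAN2B1, ARSB, MCOLN1, RRAGB, RRAGC, RRAGD and the single markers of other cell types were singled out after their values were seen. Alternatives were DESeq2 1.42.0, limma-voom (limma 3.58.1), scaling by library size, RLE or upper quartile, no filter, a filter of 1 CPM in 3 libraries, an adjusted p of 0.01, a replicate block, loess correction for GC content and length, and each library left out.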

Additional observations from a re-analysis of the deposited data

How the results depend on the processing

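Counts of called genes stayed within 1.5 times of 6344 higher and 6336 lower under each of 17 alternatives, and those of the lysosomal genes within 1.5 times of 13 and 20. Without a filter on low counts the median log2 fold change of the lysosomal genes was -0.50, and the median of all tested genes moved by more than 0.1, to 0.25. GC content and length correction moved the median of all tested genes to -0.14. Leaving out 1 library gave medians of -0.45 to -0.37 for the lysosomal genes, ratios of the summed level of 1.53 to 1.65, and 6104 to 6794 higher and 6167 to 6819 lower genes. The ratio of the summed level was 1.03 without CTSB. With the replicate number as a block, 6246 genes were higher and 6291 lower, 13 and 20 of the lysosomal genes were called and the median was -0.38; same-numbered libraries did not deviate together (r = -0.08, 0.03 and -0.02), and not every library correlated best with its own number.

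Of 644 comparisons of a single lysosomal gene with its main value, 619 kept sign and call, 8 lost the call, 9 gained one and 8 changed sign, of which 5 were called in neither. MANBA turned to -0.14 with GC content and length correction, with and without the replicate block. ARSB was at -0.06 with no filter, -0.11 with that correction and -0.16 with the block added, and ranged between -0.30 (without EA replicate 3) and 0.20 with 1 library left out. CTSD was at 0.04 with the correction, with and without the block. The summed ratios turned to 0.485 for lipid genes without PSAP, 0.962 for glycosaminoglycan enzymes without IDS and 0.993 for membrane proteins without NPC1. The cause of the changes in single genes was not tested. CTSZ, CTSS, HEXA, IDUA, GPNMB and MCOLN1 rest on few reads.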
